A study of Mus musculus with 24 samples.

Results

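The kinesin heavy chains of the Kif gene family were followed in cultured mouse liver endothelial cells whose P16 level had been lowered or raised. Members were taken by gene symbol (Kif, a number and, for some, a letter) among the protein-coding genes, which gave 39 of 21970 protein-coding genes and of 56748 genes in all. They were divided by their known roles into 12 mitotic, 13 transport, 6 cilia and 8 other members. The study isolated Cd31+ cells (all endothelial cells) and Cd146+ cells (meant to be sinusoidal endothelial cells) with magnetic beads from livers of adult mice, described as 3-month-old females, grew them in culture and transduced them with lentivirus. The 4 constructs were nc shRNA, a non-coding hairpin, and P16 shRNA, a hairpin against P16, both in a pLKO.1 vector, and empty vector and P16, a P16-GFP fusion, both in a pLenti vector with GFP. RNA was taken 1 week after transduction, and 3 libraries were made for each of the 8 groups, 24 in all. The promoters that drove the constructs and the number of animals behind a culture were not given in the sources used here.

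Libraries held between 15409767 and 26470392 counts. Cdkn2a, which encodes P16, lay between 5.07 and 25.3 CPM, counts scaled to library size, in the 6 P16 shRNA libraries. It lay between 32.3 and 194 CPM in the 12 control libraries, and between 138 and 832 CPM in the 6 P16 libraries. These are counts per gene, in which the transcripts of Cdkn2a and reads of the P16-GFP construct were not told apart. Ddx3y, a Y-linked gene, was at 1 CPM or more in 16 of 24 libraries and Xist, the RNA of the inactive X chromosome, in the other 8, which goes against the described females. Of the sinusoidal markers, Stab2 and Clec4g were under 1 CPM in all 24 libraries, Fcgr2b in 13 and Lyve1 in 12. Stab1 went the other way, at 3.68 to 430 CPM with a median of 27.0 CPM. The summed level of 12 mesenchymal markers was between 6520 and 50480 CPM, and that of 15 endothelial markers between 300 and 2641 CPM. Of the mesenchymal list, Lrat and Reln were under 1 CPM in all 24 libraries. Which cells these transcripts came from was not tested. The collagen gene Col1a1, of the mesenchymal list, was between 454 and 19343 CPM, with the lowest value in the Cd146+ empty vector library number 4. Pecam1, which encodes Cd31, was between 4.00 and 10.1 CPM in the 3 Cd146+ libraries with number 3, against a median of 145 CPM over the 24 libraries. Results from Cd146+ cells are therefore given also without these 4 libraries. These are bulk samples, so fewer dividing cells and less RNA per cell cannot be told apart.

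Kinesins are motors that turn ATP into movement along microtubules. Mitotic kinesins separate the spindle poles, shorten microtubules, carry chromosomes and build the midzone at which a cell divides, and their genes are transcribed late in the cell cycle. Transport kinesins carry vesicles, organelles and RNA in cells that divide and in cells that do not. P16 inhibits Cdk4 and Cdk6, which keeps the RB family of proteins bound to E2F factors. Many late cell cycle genes carry a cell cycle homology element, a short motif near the start site, often a small distance downstream of an NF-Y box.

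Start-site sequence was looked up in a RefSeq table for GRCm38.p6, which held a window for 31 of the 39 members, from 250 bases before to 50 bases after the start. Kif20a, Kif5a, Kif5b, Kif13b, Kif19a, Kif19b, Kif21b and Kif28 had none. The letters TTTGAA, read on both strands, stood in the windows of 9 of 11 mitotic members (81.8%) and of 1 of 10 transport members, Kif1a, against 17.9% of all 32851 windows in the table. The letters CCAAT, read on both strands, stood in 7 of 11 mitotic and 3 of 10 transport members, against 37.4% of all windows. In the cilia and other classes TTTGAA stood in 1 of 5 windows each, and CCAAT in 3 of 5 and 1 of 5. No match of TTTGAA shares letters with a match of CCAAT in the stretches shown. Kif18a and Kif2b were the mitotic members without TTTGAA. An E2F word, TTT then any pair of letters from C and G then CGC, read on both strands, stood in 2 of 11 mitotic members, Kif15 and Kif18a, in 0 of 10 transport members and in 2.26% of all windows. These are counts of letters in a window and not of binding sites.

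The stretches below, from 120 bases before to 30 bases after the start, show 6 mitotic members with a TTTGAA match and Kif1c, the transport member with the highest level per length, which had neither word. Capitals mark TTTGAA and CCAAT on either strand (TTCAAA and ATTGG on the other). In Kif11, Kif22, Kif23, Kif18b and Kif4 a CCAAT match lay upstream of the TTTGAA match. In Kif11 the TTTGAA match began 19 bases before the start and in Kif22 17 bases before it. In Kif2c it began 103 bases before the start. Kif2c had no CCAAT match in its window, nor had Kif15 and Kif20b, mitotic members with TTTGAA that are not shown. In Kif14, also not shown, the order was the other way. Its TTTGAA match began 228 and its CCAAT match 92 bases before the start. The stretches lie at chr19:37376262-37376411 (Kif11, plus strand), chr9:61946770-61946919 (Kif23, minus), chr11:102925095-102925244 (Kif18b, minus), chrX:100625945-100626094 (Kif4, plus), chr7:127042391-127042540 (Kif22, minus), chr4:117178743-117178892 (Kif2c, minus) and chr11:70700428-70700577 (Kif1c, plus).
Kif11: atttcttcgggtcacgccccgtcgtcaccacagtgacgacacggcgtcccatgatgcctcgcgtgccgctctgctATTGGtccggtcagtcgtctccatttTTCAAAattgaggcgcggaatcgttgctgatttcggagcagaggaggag
Kif23: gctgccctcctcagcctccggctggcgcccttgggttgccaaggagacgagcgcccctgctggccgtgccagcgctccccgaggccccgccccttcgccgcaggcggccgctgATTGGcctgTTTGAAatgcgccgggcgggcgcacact
Kif18b: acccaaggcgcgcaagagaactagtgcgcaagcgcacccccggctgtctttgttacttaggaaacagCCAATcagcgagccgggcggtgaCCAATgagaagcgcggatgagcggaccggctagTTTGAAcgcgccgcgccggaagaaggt
Kif4: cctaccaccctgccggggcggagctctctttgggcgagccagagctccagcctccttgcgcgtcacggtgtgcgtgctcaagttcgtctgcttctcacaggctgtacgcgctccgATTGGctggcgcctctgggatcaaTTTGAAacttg
Kif22: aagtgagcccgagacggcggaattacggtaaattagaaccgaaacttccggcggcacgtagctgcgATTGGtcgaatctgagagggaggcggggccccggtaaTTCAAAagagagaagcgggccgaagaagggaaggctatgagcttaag
Kif2c: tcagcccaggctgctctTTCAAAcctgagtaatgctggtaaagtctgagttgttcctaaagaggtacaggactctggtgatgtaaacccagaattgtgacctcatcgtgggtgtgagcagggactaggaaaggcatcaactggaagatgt
Kif1c: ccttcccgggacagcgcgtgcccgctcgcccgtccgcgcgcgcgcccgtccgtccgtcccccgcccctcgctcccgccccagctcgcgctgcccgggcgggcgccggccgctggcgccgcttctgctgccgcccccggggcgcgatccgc

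**Figure D1:**
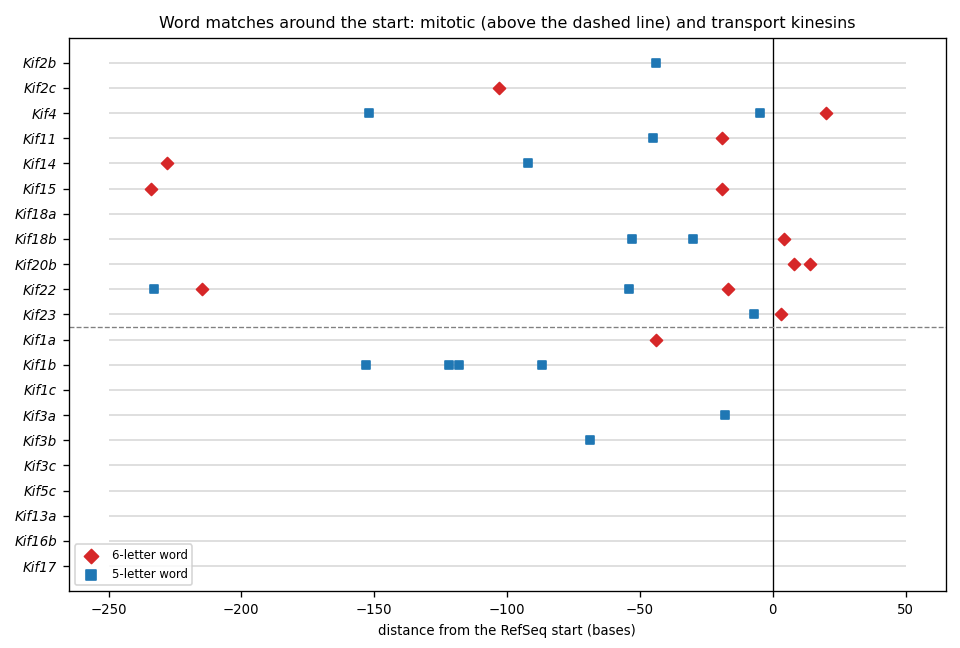
Positions of the 6 letters TTTGAA (red diamonds) and the 5 letters CCAAT (blue squares), on either strand, in the start-site windows of the mitotic and transport kinesins, in bases from the RefSeq start. TTTGAA stands in 9 of 11 mitotic and 1 of 10 transport windows, at positions spread over the window.

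Levels per length (FPKM, which scales counts to gene length and library size) spread widely over the family. Kif1c, a vesicle motor, had the highest median over the 24 libraries at 59.2 FPKM, and Kif5b, the ubiquitous conventional kinesin, followed at 41.9 FPKM. Kif26b, an atypical kinesin, had 14.4 FPKM, and Kif1b and Kif3b, a synaptic vesicle and mitochondrial motor and a subunit of the kinesin-2 motor, had 10.9 and 10.8 FPKM. Among the mitotic members Kif20a was highest at 10.4 FPKM, with Kif11 at 4.67 and Kif22 at 4.59 FPKM. Their ranges overlapped, 1.79 to 8.57 FPKM for Kif11 and 1.29 to 7.83 FPKM for Kif22. In the cilia class Kif7, of the Hedgehog pathway, had 2.64 FPKM, Kif9 0.699 and Kif24, which acts at the centriole, 0.353 FPKM. Kif2a and Kif21a, of the other class, had 6.46 and 2.29 FPKM. In counts, Kif2b was at 0 in 23 libraries and at 1 count in the other, and Kif12 at 0 in 21 libraries. Kif17, Kif19a, Kif19b and Kif28 reached at most 11, 8, 6 and 3 counts. These 6 members passed the low-count filter in none of the 9 comparisons, 31 passed in all 9, and Kif6 and Kif27 passed in 6 and 5.

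The mitotic members moved together over the 24 libraries. Over the 55 pairs of the 11 tested members, the median Pearson correlation of log2(CPM + 0.5) was 0.86 (lowest 0.55, highest 0.94), and after the group means were taken out it was 0.76. Between mitotic and transport members the median over 132 pairs was -0.32, and within the transport members 0.38 over 66 pairs. These points share their libraries, scaling and replicate numbers, so the values are a description. Each mitotic member followed the mean of the other 10 with a correlation of 0.80 (Kif22) to 0.96 (Kif15). Outside the class, the nearest were Kif21b at 0.68, Kif24 at 0.61 and Kif2a at 0.59, and the farthest was Kif3c at -0.62.

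The 9 comparisons were fitted without the replicate number as a block and with the main low-count filter. In none of them was a kinesin called by edgeR at an adjusted p under 0.05. Fits with the block called some, as given for each comparison, and a looser filter called Kif1a with P16 shRNA in Cd31+ cells. Of all genes tested, 1.30% (186 of 14358) were called for P16 shRNA against nc shRNA in Cd31+ cells and 0% in each of the other 8 comparisons, namely P16 and the other construct pairs, the populations and the differences between populations. At an unadjusted p under 0.05, members were nevertheless found in several of these fits, as given for each below.

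P16 against empty vector in Cd146+ cells addressed what a raised P16 level goes with. All 11 tested mitotic members had a negative log2 fold change, from -0.61 to -1.38 with a median of -0.89, against a median of -0.0027 for all genes tested. In 10 of the 11, every P16 library was below every empty vector library (5.50% of all genes tested), the exception being Kif18a. Of the 11, 8 had an unadjusted p under 0.05 (1.99% of all genes tested, lower direction) and none passed the adjustment. The 12 transport members had a median of 0.12, with 8 positive and 4 negative. The fold changes by gene are shown in the plot of fitted differences.

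Kif11, the motor that pushes the spindle poles apart, was at 37.0, 36.5 and 30.3 CPM in empty vector numbers 2, 4 and 5 and at 13.5, 20.9 and 23.5 CPM in P16 numbers 1, 3 and 5. The lowest empty vector library lay above the highest P16 library. The log2 fold change was -0.83 ± 0.24 (SE, n = 3 per group, edgeR adjusted p = 0.99). Kif15, which backs up Kif11 on the spindle, was at 13.8, 14.5 and 14.1 CPM with empty vector and at 3.95, 11.3 and 9.97 CPM with P16. Empty vector values were close together here and P16 values were spread, and the log2 fold change was -0.75 ± 0.39.

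Kif2c, which depolymerises microtubules at kinetochores, had the most negative value of the class. It was at 16.7, 30.1 and 19.6 CPM with empty vector and at 3.5, 9.98 and 11.9 CPM with P16. The groups did not overlap, and the log2 fold change was -1.38 ± 0.49 (adjusted p = 0.99). Kif18a, which dampens chromosome movement at the plate, was at 9.02, 9.08 and 6.85 CPM with empty vector and at 3.84, 7.01 and 5.50 CPM with P16. Here P16 number 3 lay above empty vector number 5. Kif18b, which shortens astral microtubules, was at 11.7, 24.5 and 13.7 CPM with empty vector and at 5.34, 9.06 and 10.1 CPM with P16, without overlap.

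The chromokinesins Kif4 and Kif22, which bind chromosome arms, had log2 fold changes of -0.79 ± 0.28 and -0.96 ± 0.41. Kif4 was at 21.0, 26.6 and 20.8 CPM with empty vector and at 8.45, 15 and 16.1 CPM with P16. Kif22 was at 20.8, 32.0 and 20.5 CPM with empty vector and at 6.39, 12.8 and 18.2 CPM with P16. Neither overlapped between the groups. Of the kinesins of the midzone and cytokinesis, Kif20a was at 44.0, 58.8 and 43.1 CPM with empty vector and at 15.5, 29.3 and 33.7 CPM with P16, and its log2 fold change was -0.89 ± 0.31. Kif20b, Kif23 and Kif14 had log2 fold changes of -0.69 ± 0.16, -0.96 ± 0.39 and -0.90 ± 0.32, none of them overlapping. Kif20b had the smallest unadjusted p of the class in this comparison, 0.0040 in the edgeR fit (n = 3 per group, adjusted p = 0.99).

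The P16 library number 1 was the lowest of its group for each of the 11 mitotic members and also had the highest Cdkn2a level (832 CPM). The nc shRNA library number 1 was likewise the lowest of its group for each of the 11. It had the highest Cdkn2a level of the control libraries (194 CPM), so Cdkn2a level and number cannot be told apart here. Without P16 number 1 the class median was -0.64, and without P16 number 5 it was -1.13. Without P16 number 3 and empty vector number 4, the 2 libraries that stand apart by their markers, the class median was -0.73 with all 11 still negative. Xist was detected in 2 of the 3 empty vector and 1 of the 3 P16 libraries. The P16 and empty vector libraries share number 5 alone. In that pair all 11 were lower with P16, with a median log2 ratio of -0.36. A fit of the 12 Cd146+ libraries with the replicate number as a block gave a class median of -0.56, all 11 negative, and no call. The other empty vector numbers occur in no other group, so that fit also takes its empty vector level from number 5 alone. In the fit without the block, the construct and the differing replicate numbers cannot be told apart.

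**Figure D2:**
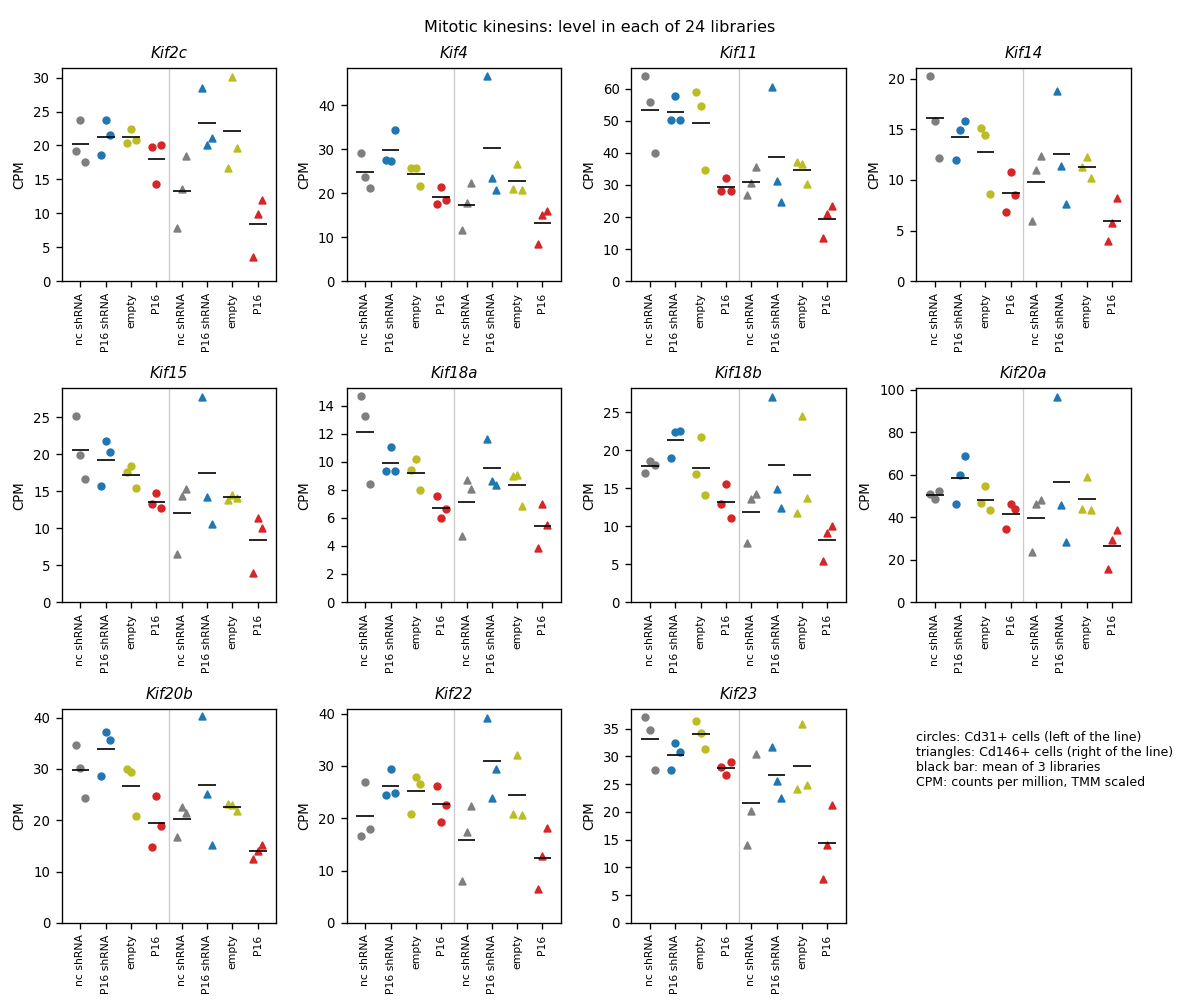
CPM of the 11 tested mitotic kinesins in all 24 libraries, with circles for Cd31+ cells, triangles for Cd146+ cells and black bars for the mean of 3 libraries. In Cd146+ cells the P16 triangles lie below the empty vector triangles for every member but Kif18a.

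Since P16 and nc shRNA share numbers 1, 3 and 5 in Cd146+ cells, P16 was also set against nc shRNA with the number as a block, a comparison chosen after the data had been seen. It crosses the 2 vector backbones, so construct and vector cannot be told apart in it, and it shares the P16 libraries with the comparison above. In each of the 3 pairs all 11 mitotic members were lower with P16, with medians of -0.53, -0.50 and -0.51 in pairs 1, 3 and 5. Of the 11 members, 8 were called by edgeR and fell (1.79% of all genes tested were called lower). Kif11 fell by 0.70 ± 0.10 on the log2 scale (adjusted p = 0.00074), Kif20a by 0.59 ± 0.09 (adjusted p = 0.00074) and Kif23 by 0.60 ± 0.11 (adjusted p = 0.0037). Kif20b, Kif2c, Kif14, Kif18b and Kif15 fell by 0.53 to 0.71. Kif4, Kif22 and Kif18a had log2 fold changes of -0.39, -0.35 and -0.39 with adjusted p = 0.054, 0.089 and 0.18. None of the 12 transport members was called, and their median was -0.0040. Without the block no kinesin was called (1 of 14503 genes in all).

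nc shRNA against empty vector, the 2 controls, gave a negative log2 fold change for 11 of 11 mitotic members in Cd146+ cells, with a median of -0.31 (-0.26 without the libraries that stand apart) and no call. With the 12-library block, whose empty vector level rests on number 5 alone, the median was -0.01, with 5 positive and 6 negative. In the shared number 5 it was 9 of 11 members that were higher with nc shRNA. In Cd31+ cells the same comparison gave 8 positive and 3 negative and a median of 0.08. The P16 value in Cd146+ cells had a median of -0.89 against empty vector and -0.54 against nc shRNA without the block. The 2 controls also differ in their replicate numbers, and the block gave -0.56 against empty vector.

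In Cd31+ cells, P16 against empty vector gave negative log2 fold changes for 11 of 11 mitotic members as well, from -0.15 to -0.74 with a median of -0.35, and transport members had a median of -0.02. Groups did not overlap, with P16 below, for 6 of 11 mitotic members (Kif11, Kif23, Kif4, Kif2c, Kif15 and Kif18a) and 0 of 12 transport members (6.33% of all genes tested). Kif11 and Kif23 had an unadjusted p under 0.05 (2.29% of all genes tested, lower direction), and none was called. Kif11 was at 59.0, 54.5 and 34.6 CPM in empty vector numbers 1, 2 and 5 and at 28.2, 32.3 and 28.0 CPM in P16 numbers 2, 3 and 5. The empty vector library with number 5 was far below the other 2 and still above every P16 library. The log2 fold change was -0.74 ± 0.21 (edgeR adjusted p = 0.95, n = 3 per group). Kif23, which with its partner builds centralspindlin, was at 36.4, 34.3 and 31.4 CPM with empty vector and at 28.0, 26.7 and 28.9 CPM with P16, a log2 fold change of -0.28 ± 0.12. The summed level of 15 endothelial markers was between 483 and 1866 CPM with empty vector (median 549) and between 859 and 2322 CPM with P16 (median 1223), and its part in the result was not tested. The weakest of the class were Kif22, at -0.15 ± 0.17, and Kif20a, at -0.22 ± 0.16, whose groups overlapped.

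The Cd31+ P16 and empty vector groups share numbers 2 and 5. In pair 2 all 11 mitotic members were lower with P16 (median log2 ratio -0.55), and in pair 5 10 of 11 were (median -0.22), Kif20a being at 0.02. With the number as a block no kinesin was called. Against nc shRNA without the block, 10 of 11 were negative and none was called, Kif22 being at 0.15. Against nc shRNA with the block, which rests on pairs 2 and 3 and leaves 1 residual degree of freedom, edgeR called 5 kinesins, all lower (4.59% of all genes tested were called lower). These were the mitotic members Kif11 (-0.65 ± 0.17, adjusted p = 0.0062), Kif14 (-0.69 ± 0.20, adjusted p = 0.015) and Kif18a (-0.66 ± 0.21, adjusted p = 0.032), with Kif1b and Kif21b. Pairs 2 and 3 differed in size, with medians for the mitotic class of -0.50 and -0.17.

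**Figure D3:**
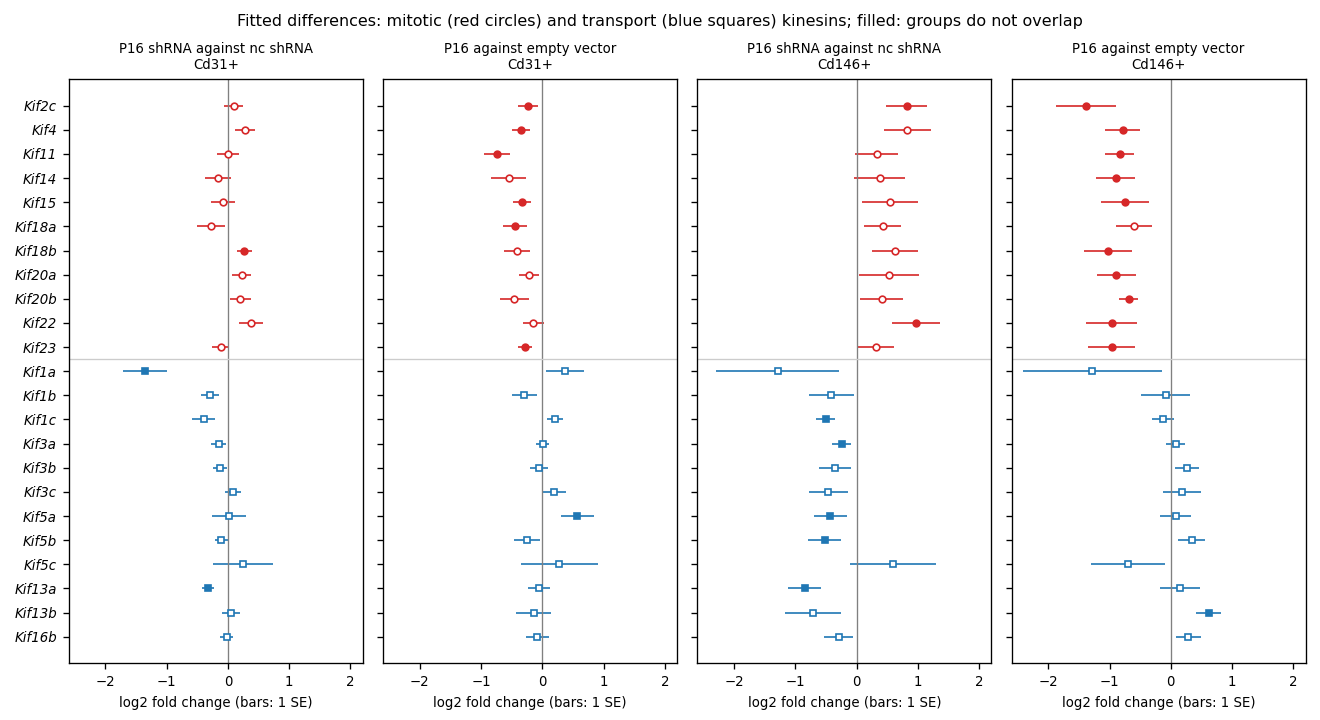
Log2 fold change with its standard error (bars) of the mitotic (red circles) and transport (blue squares) kinesins for each construct set against its own control in either population, filled where the groups do not overlap. All red points lie left of 0 with P16 in both populations, and right of 0 with P16 shRNA in Cd146+ cells.

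The difference between the P16 effects in Cd146+ and Cd31+ cells was tested in a fit of all 24 libraries. The 11 mitotic members had a median difference of -0.43, none was called, and Kif2c was the 1 member with an unadjusted p under 0.05 (-1.14 ± 0.49, edgeR adjusted p = 0.99 over 16524 genes). With the number as a block within each population the median was -0.16, with 2 positive and 9 negative, and Kif2c was at -0.65 ± 0.32 (unadjusted p = 0.056, edgeR adjusted p = 1). Without the 4 libraries the median was -0.40. A larger difference in Cd146+ cells was therefore not shown.

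P16 shRNA against nc shRNA addressed what a lowered P16 level goes with. In Cd146+ cells all 11 tested mitotic members had positive log2 fold changes, from 0.31 to 0.97 with a median of 0.54, and no member was called. Xist was detected in nc shRNA number 5 and in P16 shRNA numbers 5 and 6, and the part of sex was not tested. Every P16 shRNA library was above every nc shRNA library for Kif2c and Kif22, 2 of 11 members (10.4% of all genes tested). Kif22 was at 7.92, 17.4 and 22.4 CPM in nc shRNA numbers 1, 3 and 5 and at 39.2, 24 and 29.4 CPM in P16 shRNA numbers 3, 5 and 6. Its log2 fold change was 0.97 ± 0.40 (edgeR adjusted p = 0.43, n = 3 per group). Kif2c was at 7.82, 13.5 and 18.5 CPM with nc shRNA and at 28.5, 20.1 and 21.1 CPM with P16 shRNA, a log2 fold change of 0.82 ± 0.33. The class was led by number 3, in which 11 of 11 members were higher with P16 shRNA (median log2 ratio 0.97). Kif4 was at 17.8 and 46.6 CPM in that pair, and at 22.3 and 23.5 CPM in pair 5.

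In pair 5 the median log2 ratio of the class was 0.07, with 6 higher and 5 lower. Leaving out P16 shRNA number 3 lowered the class median of the fit from 0.54 to 0.16, and leaving out nc shRNA number 1 lowered it to 0.26. Without both libraries of number 3, which had the lowest Pecam1 and Cdh5 levels, the median was 0.18 with 10 of 11 positive. The part of these marker levels in the result was not tested.

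In Cd31+ cells P16 shRNA gave mixed signs for the mitotic members, 6 positive and 5 negative with a median of 0.09. Kif18b was the 1 member whose P16 shRNA libraries all lay above the nc shRNA libraries (13.0% of all genes tested). By number, 2 of 11 members were higher in pair 1, 8 in pair 2 and 11 in pair 3, with medians of -0.27, 0.12 and 0.32. Kif22 was higher in all 3 pairs and was at 16.5, 26.9 and 18 CPM with nc shRNA and 24.4, 29.3 and 24.8 CPM with P16 shRNA. Its adjusted p was 0.35 without the block, 0.053 with the block in the 2 groups and 0.032 with the block in the 12 libraries. The difference between the P16 shRNA effects in the 2 populations had a median of 0.54 over the mitotic members and no call, with a median of 0.38 under the block and 0.22 without the 4 libraries.

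**Figure D4:**
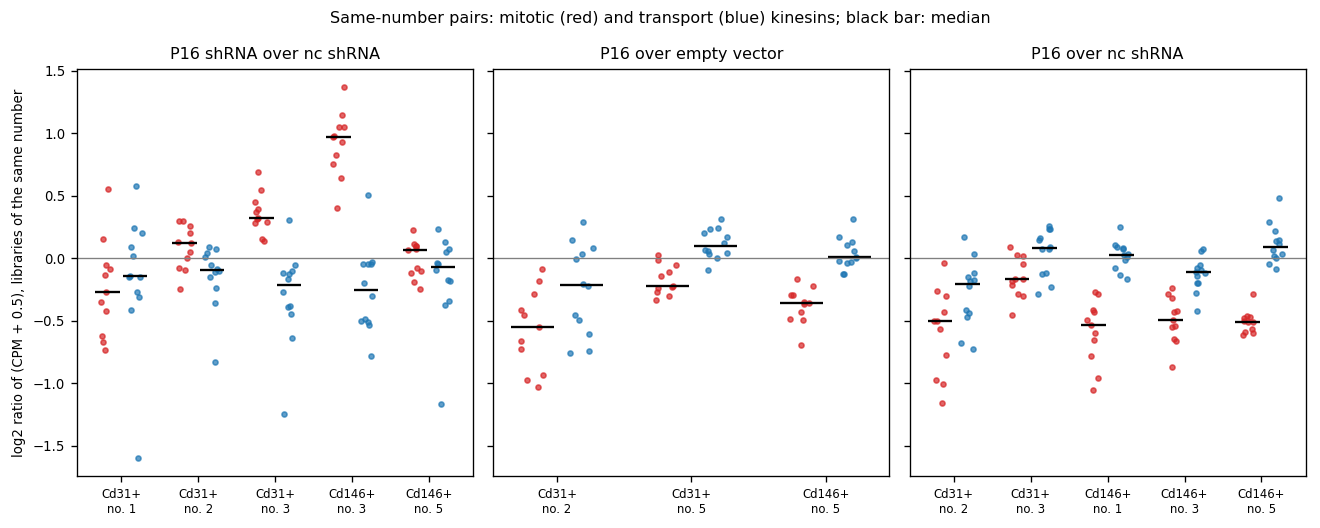
Log2 ratios of CPM + 0.5 between libraries of the same number for the 11 mitotic (red) and 12 transport (blue) kinesins, with black bars for the median. With P16 over nc shRNA in Cd146+ cells all red points lie below 0 in the 3 pairs, while with P16 shRNA the height of the red points differs by number, from a median of -0.27 to 0.97.

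Of the transport members, Kif1c, Kif1a and Kif13a had lower values with P16 shRNA in both populations. Kif1c was at 281, 392 and 470 CPM in Cd31+ nc shRNA numbers 1, 2 and 3 and at 253, 305 and 301 CPM in the P16 shRNA libraries of these numbers. It was lower in each pair, although nc shRNA number 1 lay below P16 shRNA numbers 2 and 3. The log2 fold change was -0.40 ± 0.19 (edgeR adjusted p = 0.31) and, with the block in the 2 groups, -0.37 ± 0.11 (adjusted p = 0.043, called lower, in a fit that called 18.8% of all genes tested). In Cd146+ cells Kif1c was at 456, 442 and 432 CPM with nc shRNA and at 304, 334 and 295 CPM with P16 shRNA, so that the groups were apart and tight. The log2 fold change was -0.51 ± 0.15 (adjusted p = 0.38, n = 3 per group, edgeR) without the block. The block in the 12 libraries gave -0.45 ± 0.09 (adjusted p = 0.024, in a fit that called 8.33% of all genes tested). With P16, Kif1c had log2 fold changes of 0.21 and -0.13 in Cd31+ and Cd146+ cells.

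Kif1a, a neuronal vesicle motor at low level here, was at 4.56, 4.95 and 6.49 CPM in Cd31+ nc shRNA and at 1.18, 2.56 and 2.45 CPM in Cd31+ P16 shRNA libraries, without overlap. The log2 fold change was -1.35 ± 0.35 (edgeR adjusted p = 0.11), and with the block in the 2 groups it was -1.38 ± 0.25 (adjusted p = 0.0079). With all genes of at least 1 count tested, edgeR called Kif1a without the block as well, so that call depended on the filter. In Cd146+ cells Kif1a differed by number, at 12.6, 1.55 and 14.7 CPM with nc shRNA numbers 1, 3 and 5 and at 0.688, 6.26 and 4.81 CPM with P16 shRNA numbers 3, 5 and 6. The groups overlapped, yet in the shared numbers 3 and 5 the P16 shRNA library was lower in each. The block in the 12 libraries gave -1.31 ± 0.20 (adjusted p = 0.0083), against an adjusted p of 0.61 without it. The highest level of Kif1a, 64.0 CPM, was in Cd146+ empty vector number 2.

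Kif13a, which carries endosomal cargo to the cell surface, was at 48.1, 50.4 and 53.7 CPM in Cd31+ nc shRNA and at 38.6, 42.5 and 39.3 CPM in Cd31+ P16 shRNA libraries. With Kif1a it was 1 of 2 transport members, of 12, below nc shRNA without overlap (14.2% of all genes tested). Its log2 fold change was -0.32 ± 0.10 (edgeR adjusted p = 0.14), and with the block in the 2 groups it fell by the same 0.32 (adjusted p = 0.044). The 12-library block (16.8% of all genes called) did not call it (adjusted p = 0.13). In Cd146+ cells it was at 71.4, 43.8 and 46.0 CPM with nc shRNA and at 30.5, 36.1 and 22.9 CPM with P16 shRNA. Here 5 of 12 transport members (Kif1c, Kif5b, Kif13a, Kif3a and Kif5a) were below nc shRNA without overlap, against 10.3% of all genes tested. The transport median in this comparison was -0.44 without the block and -0.16 with the block in the 2 groups, with no edgeR call in either, and without the block DESeq2 called Kif1c (adjusted p = 0.020). The size of the median depended on the block.

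P16 shRNA number 6 in Cd146+ cells had the lowest value of the 24 libraries for Kif5b (174 CPM), Kif13a, Kif13b, Kif3a, Kif3b, Kif3c and Kif16b. Kif5b was at 444, 373 and 343 CPM with nc shRNA and at 301, 331 and 174 CPM with P16 shRNA. In Cd31+ cells Kif5b had a log2 fold change of -0.11 ± 0.10 with P16 shRNA. Kif3b was at 57.0 to 90.1 CPM with nc shRNA and 42.1 to 71.5 CPM with P16 shRNA in Cd146+ cells, with overlap. Kif13b, which carries the scaffold protein Dlg1, was above empty vector without overlap with P16 in Cd146+ cells, at 67.0, 69.7 and 46.0 CPM against 33.9, 39.6 and 45.7 CPM. Its log2 fold change of 0.62 ± 0.21 (edgeR adjusted p = 0.99) was -0.02 with the 12-library block. That block takes its empty vector level from number 5 alone.

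**Figure D5:**
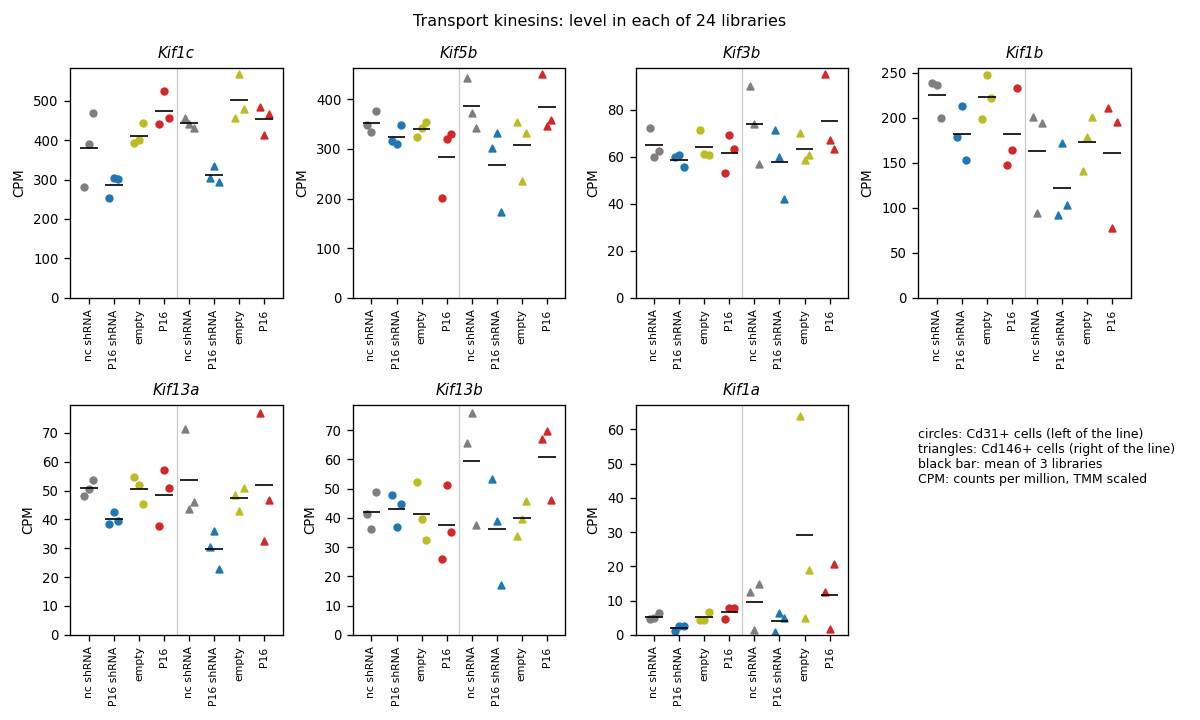
CPM of 7 transport kinesins in all 24 libraries, with circles for Cd31+ cells, triangles for Cd146+ cells and black bars for the mean of 3 libraries. The P16 shRNA points of Kif1c lie under those of nc shRNA in both populations apart from 1 nc shRNA library, and Kif1a spreads most, up to 64.0 CPM.

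In the cilia and other classes edgeR called no member without the block. In Cd31+ cells the block in the 2 groups called Kif26b lower (-0.38 ± 0.09, adjusted p = 0.024) and Kif21a, an inhibitor of microtubule growth, higher (0.51 ± 0.13, adjusted p = 0.025) with P16 shRNA. Kif26b was at 323, 370 and 261 CPM with nc shRNA numbers 1, 2 and 3 and at 266, 291 and 177 CPM with P16 shRNA. Kif21a was at 14.7, 10.9 and 22.2 CPM with nc shRNA and at 23.9, 15.6 and 27.2 CPM with P16 shRNA. With P16 in Cd146+ cells Kif21a had the largest value of the family against empty vector, 1.61 ± 0.58 (edgeR adjusted p = 0.99), but it was -0.02 with the 12-library block, and nc shRNA against empty vector gave 1.70. The value with the block takes its empty vector level from number 5 alone. Kif7, Kif9, Kif24 and Kif2a had no unadjusted p under 0.05 in the 4 construct comparisons. With P16 in Cd146+ cells Kif7 and Kif24, 2 of 3 tested cilia members, lay below empty vector without overlap (5.50% of all genes tested). Their log2 fold changes were -0.23 ± 0.20 and -0.72 ± 0.36. In Cd31+ cells Kif9, at 1.94 to 3.29 CPM, lay below nc shRNA with P16 shRNA without overlap (14.2% of all genes tested). It lay above empty vector without overlap both with P16 (4.45% of all genes tested) and with nc shRNA (4.97%).

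Between populations, with control constructs, all 11 mitotic members had lower values in Cd146+ than in Cd31+ cells, with a median log2 fold change of -0.40, 5 of them at an unadjusted p under 0.05 (9.12% of all genes tested, lower direction), and none was called by edgeR. Kif11 was at 26.7 to 37.0 CPM in the 6 Cd146+ control libraries and at 34.6 to 64.0 CPM in the 6 Cd31+ ones. These ranges overlapped. The log2 fold change was -0.65 ± 0.16 (edgeR adjusted p = 0.14), and DESeq2 called Kif11 and Kif21b (4.17% of all genes tested). These fits take the 6 libraries of a population as independent, although nc shRNA and empty vector libraries of the same number correlate and the 6 carry 4 numbers in Cd31+ and 5 in Cd146+ cells. A block across both populations called neither (edgeR adjusted p = 0.15 and 0.11). Kif21b, another brake on microtubule growth, had -1.88 ± 0.46. Xist was detected in 3 of the 6 Cd146+ and 1 of the 6 Cd31+ control libraries, so sex and population cannot be fully told apart here. Without the libraries that stand apart, all 11 mitotic members were still negative, with a median of -0.52, and none was called.

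Partners of the motors were counted from lists of related genes. Of 24 mitotic spindle partners (Aurora kinases, cyclin B, Mki67 and the like), P16 gave negative log2 fold changes for all 24 in each population (median -0.35 in Cd31+ and -0.85 in Cd146+ cells), and 24 of 24 and 22 of 24 had positive ones with P16 shRNA in Cd146+ and Cd31+ cells. None was called in these 4 fits, and the block in the 2 groups called 4 of 24 higher with P16 shRNA in Cd31+ cells, where it called 8.92% of all genes tested higher and 9.90% lower. Against nc shRNA with the block, 16 of 24 were called lower with P16 in Cd146+ cells (1.79% of all genes tested) and 4 of 24 in Cd31+ cells (4.59%). The smallest p values belonged to Incenp, Aurka and Plk1 (P16 shRNA, Cd31+), Aurka, Birc5 and Cdca8 (P16 shRNA, Cd146+), Mki67, Ect2 and Cenpe (P16, Cd31+) and Incenp, Mki67 and Cenpe (P16, Cd146+). Mki67, a marker of cycling cells, had log2 fold changes of -0.74 ± 0.21 and -1.26 ± 0.40 with P16 in Cd31+ and Cd146+ cells. Of 4 C-terminal kinesins, none was called. Of 15 tested light chains and adaptors, 0 were called in the 4 fits without the block, and the block in the 2 groups called 1 higher and 4 lower with P16 shRNA in Cd31+ cells, against the same 8.92% and 9.90%. In Cd31+ cells with P16 shRNA the lowest p were 0.0035 for the scaffold Spag9, -0.43 ± 0.10 (edgeR adjusted p = 0.090), and 0.0048 for the mitochondrial adaptor Trak2, 0.43 ± 0.11 (edgeR adjusted p = 0.10). Next was 0.0081 for Mapk8ip3, -0.70 ± 0.19 with P16 shRNA in Cd146+ cells (edgeR adjusted p = 0.38). Of 22 dynein and dynactin genes tested in Cd31+ cells, 1 was called with P16 shRNA without the block (1.30% of all genes tested). It was Dctn6, a subunit of the dynactin pointed end, which fell by 0.98 ± 0.11 on the log2 scale (edgeR adjusted p = 0.019). Dctn4 had -0.41 ± 0.10 (edgeR adjusted p = 0.094) and Actr1a 0.37 ± 0.10 (edgeR adjusted p = 0.11), and neither was called. No gene at all was called in that comparison when any of the 3 P16 shRNA libraries was left out, so the Dctn6 call rests on all of them. In Cd146+ cells Dctn6 had -0.91 ± 0.36 (edgeR adjusted p = 0.42).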

How the data were processed

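RNA of 24 libraries (8 groups of 3) was poly-A selected and sequenced by a service provider. Per the labels the authors' processing named fastp and the mouse build mm9. The aligner, the counter and whether strand was used are not given in the sources used here, so reads of overlapping genes could not be told apart. The authors deposited 1 table of raw counts per gene, with FPKM values (counts scaled to gene length and library size) and the gene length in bases, which were used for levels between genes. The deposited table also held the authors' own fold changes and p-values, which were not used. No file coordinates are printed, and promoter sequences come from a RefSeq table of GRCm38.p6.

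Counts were tested with edgeR 4.0.16 in R 4.3.3 (filterByExpr, TMM, robust quasi-likelihood test, Benjamini-Hochberg adjustment over all genes tested), each comparison on its 2 groups, populations on 12 control libraries, and differences between populations on all 24. Fold changes are log2 with their standard error, CPM are TMM-scaled, and called means an adjusted p under 0.05. The fits of 2 groups without the block were tested on simulated independent libraries, with a cap on the spread between them. There the median fitted fold changes had the simulated direction and lay close to the simulated size. Fits with the block, and libraries that correlate by number, were not simulated. Counts limit precision through counting error only. In Cd31+ empty vector, Cd31+ P16 and every Cd146+ group some libraries had Ddx3y and others Xist, so their libraries did not all come from the same animal. Whether each library of a group came from its own animal is not given, so p-values measure the spread between these libraries.

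Replicate numbers came from the sample titles. Deviations from group means correlated between libraries of the same number, with a median of 0.59 over 13 pairs in Cd31+ cells (lowest 0.38) and 0.72 over 10 pairs in Cd146+ cells (lowest 0.37), against -0.18 and -0.07 for different numbers. Numbers therefore paired libraries within a population, and fits with the number as a block are given beside results they changed. Alternatives were DESeq2 1.42.0 (test and size factors), other low-count filters, a fit of 12 libraries and leaving out each library. P16 against nc shRNA, and leaving out 4 libraries, were added after the data were seen.

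The members and gene lists were chosen with earlier results of these data known. Named were all tested mitotic members, and in the other classes those set by level or by p. Kif1b, Kif21b and members named for a lowest value, a non-overlap or a missing sequence were named after their values were seen.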

Additional observations from a re-analysis of the deposited data

How the results depend on the processing

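Without the replicate block and with the main low-count filter, no kinesin was called in any of the 9 edgeR comparisons. The same held when any library was left out (0 to 0 calls). For P16 shRNA in Cd31+ cells, 1 kinesin (Kif1a) was called by edgeR with all genes of at least 1 count, and 1 by DESeq2. The replicate block in either the 2 groups or the 12 libraries called 5. Calls over all genes there went from 186 to 2703 and 2586 (18.8% and 16.8% of all genes tested). For P16 shRNA in Cd146+ cells, 1 was called by DESeq2 (Kif1c) and 2 with the 12-library block (8.33% of all genes tested). DESeq2 called 2 between populations (4.17% of all genes tested). With nc shRNA as the control and the block, P16 gave 5 calls in Cd31+ and 8 in Cd146+ cells, all lower. Of all genes tested, 4.59% and 1.79% were called lower there. The transport median with P16 shRNA in Cd146+ cells, -0.44, moved to -0.16 and -0.15 with the block in 2 groups and 12 libraries. The direction reversed for Kif22 with P16 in Cd31+ cells against nc shRNA (0.15, and 0.020 with the block), for Kif13b with P16 in Cd146+ cells with the 12-library block (-0.023), and for Kif21a there with that block (-0.022) and against nc shRNA (-0.096, and -0.095 with the block). The cause was not tested. The block changed no other call. Leaving out 1 library moved the mitotic median with P16 from -1.13 to -0.64 in Cd146+ and from -0.43 to -0.27 in Cd31+ cells, and with P16 shRNA from 0.16 to 0.76 and from 0.00027 to 0.17. In Cd146+ cells P16 and empty vector share number 5 alone, so no block of the 2 groups could be fitted. The 12-library block there takes its empty vector level from number 5 alone. Across populations the numbers did not pair (median correlation 0.11), and that block called 0 kinesins (Kif11 adjusted p = 0.15, Kif21b adjusted p = 0.11). Of the other comparisons of values with their alternatives, 264 main values stayed close to the main fit. For these, counts of calls were equal, or class medians moved by less than the standard deviation between libraries of a group. Their direction was not required to hold. Leaving out 1 library took the transport median with P16 from -0.095 to 0.094 in Cd31+ and from -0.093 to 0.30 in Cd146+ cells. The 560 further values kept direction and side of the threshold, and 28 values, of 16 kinesins, passed it under an alternative.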
